A study of Mus musculus with 12 samples.

Results

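The genes described here are 8 transcription factors and cofactors that mark the otic placode and the early otic vesicle: Pax2, Pax8, Eya1, Eya4, Six4, Sox9, Sox10 and Gata3. Members were all probe sets listed with 1 of these gene symbols, which gave 20 of the 45101 probe sets on the array and 7 genes. Pax8 had 2 probe sets, Eya1 3, Eya4 4, Six4 4, Sox9 3, Sox10 3 and Gata3 1. Pax2 was not analysed here. In a gene-level test each gene stood for its brightest probe set over the arrays of the fit, and the dimmest 25% of genes were left out. All 7 genes passed this filter in otic vesicles, and 6 of the 7 passed it in the 2B1 cell line, where Pax8 was too dim.

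RNA was hybridised to 12 Affymetrix mouse arrays in 6 groups of 2. The vesicle groups were embryos labelled Dlx5-null at E10.5 (days of mouse gestation), wild-type embryos at E10.5, embryos labelled Dlx5-null at E10 and wild-type embryos at E10. Each of those arrays held a separate pool of 4 to 8 vesicles, dissected and treated with dispase at 1 mg/ml. The cell line groups were 2B1 otic vesicle cells transfected transiently with vectors for Dlx5 and GFP, and 2B1 cells given a GFP vector without Dlx5. All 2B1 cultures were grown at 32 °C with gamma-interferon and then held at 37 °C without it for 4 days. The strain, the allele behind the Dlx5-null label and the sex of the pools are not known from the labels, and 2B1 is 1 line. Values are log2 expression after robust multi-array averaging, and 2 arrays a group limit the precision.

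The otic placode is a patch of ectoderm beside the hindbrain that thickens, folds inward and closes into the otic vesicle, from which the inner ear and its neurons form. Paired-box factors such as Pax2 and Pax8 take part in specifying this ectoderm. Eya proteins are transcriptional cofactors with phosphatase activity that are recruited to DNA by homeodomain proteins such as Six4, and the same families recur in other sensory placodes and in the kidney. Sox9 and Sox10 are related SoxE factors with high-mobility-group domains, shared between otic epithelium and neural crest. Gata3 is a zinc finger factor of the early otic epithelium, and loss of 1 copy causes deafness in people.

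Promoters are shown for Pax8 and Six4. On their brightest probe sets, though not on their others, the level was lower in every labelled-null array than in each wild-type array of its own stage. The RefSeq windows run from 250 bases before to 50 bases after an annotated start site in GRCm38.p6, and capitals mark CCAAT, the core of the CCAAT box. The Pax8 window is chr2:24475550-24475849 and the Six4 window is chr12:73113376-73113675, both on the minus strand. The table also held a second Six4 window and windows for Pax2, Eya4 and Gata3, for 5 of the 8 genes in all, and none was printed for Eya1, Sox9 or Sox10.
Pax8: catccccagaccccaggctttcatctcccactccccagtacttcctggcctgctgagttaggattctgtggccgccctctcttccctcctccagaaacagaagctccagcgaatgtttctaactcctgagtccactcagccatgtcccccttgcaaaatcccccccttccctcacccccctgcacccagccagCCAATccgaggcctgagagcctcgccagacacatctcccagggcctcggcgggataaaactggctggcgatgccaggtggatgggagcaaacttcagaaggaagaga
Six4: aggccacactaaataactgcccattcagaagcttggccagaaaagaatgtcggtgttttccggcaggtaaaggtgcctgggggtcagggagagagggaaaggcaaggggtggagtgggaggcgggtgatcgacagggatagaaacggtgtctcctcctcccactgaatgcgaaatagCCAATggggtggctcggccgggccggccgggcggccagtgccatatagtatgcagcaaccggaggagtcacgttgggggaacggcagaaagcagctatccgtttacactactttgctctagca

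CCAAT, sought on both strands, began at position -57 from the start site in the Pax8 window and at -73 in the printed Six4 window. Of 32851 RefSeq windows of 300 bases, 37.4% held it. The second Six4 window and the windows for Pax2, Eya4 and Gata3 held no CCAAT. The Pax8 window also held a core of the kind bound by Gata3 and its relatives, GATAAA, at position -5, a motif found in 10.1% of windows. The homeodomain cores TAATTA (5.29% of windows) and TAATTG (8.00%), the SOX core ACAAAG (18.7%) and TATAAA (13.6%) were absent from both printed windows. None of these motifs overlapped another there. A match is a description of letters and says nothing of binding.

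The Dlx5 probe set was read first, as a check of the labels. Its log2 level was 7.97 and 7.97 in labelled-null E10.5 vesicles, against 6.12 and 6.11 in wild-type E10.5 vesicles, and 7.27 and 8.02 in labelled-null E10 vesicles, against 6.20 and 6.30 in wild-type E10 vesicles. The level thus went against the label at both stages. The Dlx5-transfected 2B1 cultures had 5.14 and 4.80, against 4.66 and 4.79 in cultures without the Dlx5 vector. Where its probes lie relative to the deleted or transfected sequence was not stated, so groups go by their labels throughout. The vesicle and cell line arrays appeared to have been normalised separately, with array means of 6.10 to 6.11 and 5.76 to 5.82, and no level was set across them.

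The replicate 1 arrays of both genotypes at E10 stood apart from the other vesicle arrays. Their log2 values had a standard deviation of 2.32 and 2.33, against 2.38 to 2.47 on the other 6, and Xist, which is transcribed from the inactive X chromosome, was at 4.98 and 5.07, against 8.91 to 9.72. Each of the 7 genes was lower on replicate 1 than on replicate 2 of the same genotype at E10, in both genotypes. Of all 13645 genes tested in vesicles, 53.3% were. Differences that rest on these arrays are therefore also given without both.

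**Figure D1:**
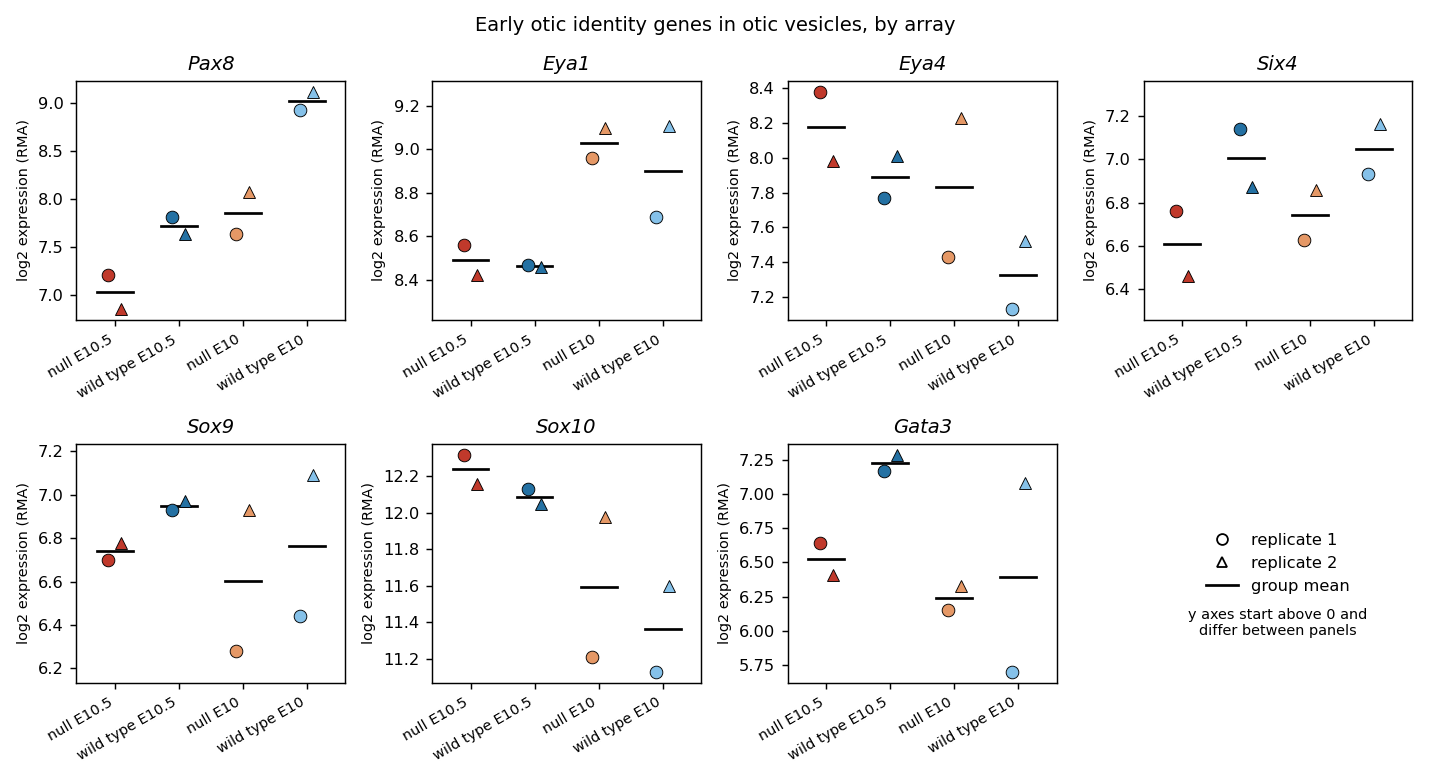
Log2 expression of the 7 early otic genes on each vesicle array, 1 panel a gene, with circles for replicate 1, triangles for replicate 2 and a bar at the group mean. Pax8 ran between 6.85 and 9.12 and was lowest in labelled-null E10.5 vesicles, and in every panel the E10 circles lie below the E10 triangles.

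Pax8 showed the widest span of vesicle group means among the members, 2.00 on the log2 scale. Its log2 level was 7.21 and 6.85 in labelled-null E10.5 vesicles, against 7.81 and 7.63 in wild-type E10.5 vesicles. At E10 it was 7.63 and 8.07 in labelled-null vesicles, against 8.93 and 9.12 in wild-type vesicles. From high to low the groups ran wild type at E10, labelled-null at E10, wild type at E10.5 and labelled-null at E10.5, where the middle 2 overlapped and the outer ones stood clear. The second Pax8 probe set was dim on all vesicle arrays, between 3.92 and 4.63, below the filter. Its difference was -0.17 between the stages and -0.05 between the genotypes, labelled-null minus wild type. The mean of both sets gave -0.62 between the stages (limma adjusted p = 0.0128) and -0.49 between the genotypes (limma adjusted p = 0.477), against -1.06 and -0.93 on the brighter set.

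Pax8 fell by 1.06 on the log2 scale in E10.5 vesicles relative to E10 vesicles, with genotype as a covariate (SE 0.16, 4 arrays a stage, limma adjusted p = 0.00681), a 2.09-fold lower level. The difference was -0.82 in labelled-null vesicles (limma adjusted p = 0.158), where 0.0220% of all genes passed, and -1.30 in wild-type vesicles (limma adjusted p = 0.0403), where 2.17% did. These were not shown to differ (interaction 0.49, SE 0.30, limma adjusted p = 1). Without both E10 replicate 1 arrays the difference was -1.22 (SE 0.14, limma adjusted p = 0.00489). In bulk tissue, fewer cells of a type and less RNA per cell cannot be told apart.

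By genotype, the log2 difference of Pax8, labelled-null minus wild type with stage as a covariate, was -0.93 over both stages (SE 0.16, 95% interval -1.30 to -0.56). Its unadjusted limma p of 0.00035 ranked 27 of 13645, and its adjusted p was 0.172, which missed the threshold of 0.05. The difference was -0.69 at E10.5 (SE 0.21, limma adjusted p = 1) and -1.18 at E10 (SE 0.21, limma adjusted p = 0.471). All 4 labelled-null arrays lay below both wild-type arrays of their stage. With a term for the E10 replicate 1 arrays, added after the data were seen, the difference passed over both stages (limma adjusted p = 0.0474) and at E10 (limma adjusted p = 0.0399). With that term 38 and 73 of all 13645 genes passed in these comparisons, against 3 and 0 without it. Leaving both arrays out gave -0.81 (limma adjusted p = 0.11).

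Eya1 encodes an Eya cofactor without which the mouse ear does not develop past the vesicle. Its log2 level was 8.56 and 8.42 in labelled-null E10.5 vesicles, against 8.47 and 8.46 in wild-type E10.5 vesicles. At E10 it was 8.96 and 9.10 in labelled-null vesicles, against 8.69 and 9.11 in wild-type vesicles. Genotypes overlapped at each stage and the E10.5 arrays all lay below the E10 arrays. Eya1 fell by 0.49 in E10.5 vesicles relative to E10 vesicles (SE 0.12, limma adjusted p = 0.0317), a 1.40-fold lower level, and by 0.63 without both E10 replicate 1 arrays (limma adjusted p = 0.00735). Its second brightest probe set, tested singly, also fell, by 0.46 (limma adjusted p = 0.0367). The genotype difference was 0.08 (SE 0.12, 95% interval -0.20 to 0.35, limma adjusted p = 0.999).

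Eya4 encodes a relative of Eya1 whose mutations cause late hearing loss in people. Its log2 level was 8.38 and 7.98 in labelled-null E10.5 vesicles, against 7.77 and 8.01 in wild-type E10.5 vesicles. At E10 it was 7.43 and 8.23 in labelled-null vesicles, against 7.13 and 7.52 in wild-type vesicles. The stages overlapped in the labelled-null arrays and not in the wild-type arrays. The other Eya4 probe sets had stage differences of 0.41, 0.36 and -0.215, the last on a set below the filter. Without both E10 replicate 1 arrays the first of these was 0.15 and the second turned to -0.255. On the brightest set, whose levels are given above, the stage difference was 0.46 (SE 0.20, limma adjusted p = 0.143) and the genotype difference 0.40 (SE 0.20, limma adjusted p = 0.999). Without both E10 replicate 1 arrays the stage difference was 0.16, and without labelled-null E10 replicate 2 it was 0.64 and passed (limma adjusted p = 0.0217).

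Six4, a homeobox gene whose product binds DNA with Eya partners, was at 6.76 and 6.46 in labelled-null E10.5 vesicles, against 7.14 and 6.87 in wild-type E10.5 vesicles. At E10 its log2 level was 6.63 and 6.86 in labelled-null vesicles, against 6.93 and 7.16 in wild-type vesicles. Labelled-null arrays lay below the wild-type arrays of their stage, and the stages overlapped within each genotype. The genotype difference was -0.35 (SE 0.13, unadjusted p = 0.0243, limma adjusted p = 0.999) and the stage difference -0.09 (SE 0.13, limma adjusted p = 0.658). The other Six4 probe sets did not follow in the genotype comparison, with differences of 0.14, 0.09 and -0.05, and the mean of all 4 sets gave -0.04. In the stage comparison the differences of these 3 sets were -0.70, -0.73 and -0.34, and none passed singly. The first 2 had limma adjusted p-values of 0.0771 and 0.136, and the third was below the filter. The mean of all 4 sets gave a stage difference of -0.46 (limma adjusted p = 0.0706).

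Sox9 is known in the mouse for its part in the inward folding of the placode. Its log2 level was 6.70 and 6.78 in labelled-null E10.5 vesicles, against 6.93 and 6.97 in wild-type E10.5 vesicles. At E10 it was 6.28 and 6.93 in labelled-null vesicles, against 6.44 and 7.09 in wild-type vesicles. At E10 the replicates lay farther apart than the group means, whose span over the 4 groups was 0.34. The stage difference was 0.16 (SE 0.18, limma adjusted p = 0.567) and turned to -0.17 without both E10 replicate 1 arrays. The genotypes were apart at E10.5, as they were for 45.1% of all genes, and the genotype difference over both stages was -0.18 (SE 0.18, limma adjusted p = 0.999).

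Sox10 marks otic epithelium as well as neural crest and its glia. On its brightest probe set the log2 level was 12.32 and 12.16 in labelled-null E10.5 vesicles, against 12.13 and 12.05 in wild-type E10.5 vesicles. At E10 it was 11.21 and 11.98 in labelled-null vesicles, against 11.13 and 11.60 in wild-type vesicles. Genotypes overlapped at E10 and were apart at E10.5, as they were for 45.1% of all genes. Every E10.5 array lay above every E10 array. Sox10 rose by 0.69 in E10.5 vesicles relative to E10 vesicles (SE 0.18, limma adjusted p = 0.0391), a 1.61-fold higher level, and the genotype difference was 0.19 (SE 0.18, limma adjusted p = 0.999). Without both E10 replicate 1 arrays the stage difference was 0.38 (SE 0.10, limma adjusted p = 0.0478). Within a genotype it was 0.65 in labelled-null vesicles (limma adjusted p = 0.333) and 0.72 in wild-type vesicles (limma adjusted p = 0.187).

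The 3 Sox10 probe sets differed in the size of the rise. On the dimmest of them the log2 level was 10.10 and 10.16 in labelled-null E10.5 vesicles and 10.19 and 10.17 in wild-type E10.5 vesicles, against 7.34 and 8.63 in labelled-null E10 vesicles and 7.45 and 8.25 in wild-type E10 vesicles. Tested singly over all probe sets, of which 9.37% passed, this set rose by 2.24 (SE 0.27, limma adjusted p = 0.00356). The set of middle brightness, at 10.47 to 10.70 in E10.5 vesicles against 8.86 to 9.76 in E10 vesicles, rose by 1.32 (SE 0.19, limma adjusted p = 0.0062), and the brightest set passed singly as well (limma adjusted p = 0.0471). All 3 sets thus rose, by amounts from 0.69 to 2.24, and the brightest set moved least. The 3 differences without both E10 replicate 1 arrays were 1.72, 1.01 and 0.38, the last of which missed the threshold singly (limma adjusted p = 0.0728). Their genotype differences were 0.04, 0.01 and 0.19. At E10.5 alone these were -0.05, -0.04 and 0.15. The genotypes there were apart in opposite directions on the dimmest and the brightest set, and overlapped on the set of middle brightness. Where the 3 sets lie on the Sox10 transcript was not examined.

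**Figure D2:**
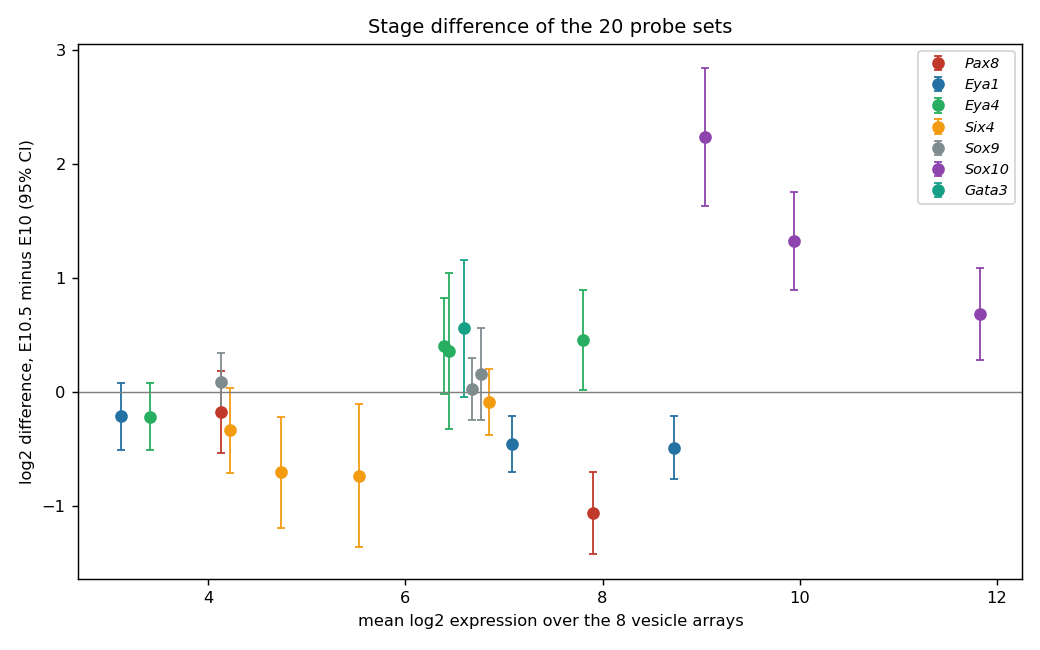
Difference in log2 expression between E10.5 and E10 vesicles with its 95% confidence interval for each of the 20 probe sets, against the mean log2 level over the 8 vesicle arrays, coloured by gene. The 3 Sox10 sets stand at the upper right, with differences of 0.69, 1.32 and 2.24, and the brighter Pax8 set is lowest at -1.06.

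Gata3 had the widest gap between replicates of the 7 genes, 1.38. Its log2 level was 6.64 and 6.41 in labelled-null E10.5 vesicles, against 7.17 and 7.29 in wild-type E10.5 vesicles. At E10 it was 6.15 and 6.33 in labelled-null vesicles, against 5.70 and 7.08 in wild-type vesicles. The genotypes were apart at E10.5, where the difference was -0.71 (SE 0.40, limma adjusted p = 1), and overlapped at E10. Over both stages it was -0.43 (SE 0.28, limma adjusted p = 0.999), and the interaction was -0.56 (SE 0.56, limma adjusted p = 1). Without both E10 replicate 1 arrays the difference over both stages was -0.72 (SE 0.10, limma adjusted p = 0.0682). The stage difference was 0.56 (SE 0.28, limma adjusted p = 0.189) with all arrays and 0.17 without those 2.

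Between the stages, 3 of the 7 genes passed the threshold, Pax8 and Eya1 in the falling direction and Sox10 in the rising one. Of all genes tested, 15.8% passed in this comparison, 9.28% higher and 6.54% lower at E10.5. The median stage difference was 0.16 over the 7 genes and 0.05 over all 13645. Within each genotype the stages did not overlap for 4 of the 7, these 3 and Gata3, and for 31.5% of all genes. The same 3 genes passed without both E10 replicate 1 arrays, with 18.4% of all genes. Pax8 alone passed whichever single array was left out, with limma adjusted p-values of 0.00696 to 0.0386. Eya1 missed the threshold in 6 of those 8 fits, without wild-type E10 replicate 2, without labelled-null E10 replicate 1 and without any 1 of the E10.5 arrays, with limma adjusted p-values of 0.0575 to 0.104. Sox10 missed it in 6 as well, without replicate 1 of either genotype at E10 and without any 1 of the E10.5 arrays, with limma adjusted p-values of 0.0777 to 0.125. With each array centred on its median, Eya1 and Sox10 missed it (limma adjusted p = 0.0932 and 0.0639). With the Y-linked gene Eif2s3y as a covariate, Eya1 alone passed, at -0.74 (limma adjusted p = 0.0408), beside -1.15 for Pax8 (limma adjusted p = 0.0552) and 0.37 for Sox10 (limma adjusted p = 0.392). Eif2s3y was below the filter, at 4.82 and 5.04 in labelled-null E10.5 vesicles and 3.21 and 3.45 in wild-type E10.5 vesicles. At E10 it was at 6.50 and 6.17 in labelled-null vesicles and 7.04 and 3.96 in wild-type vesicles. It thus varied with stage and genotype, and the fit cannot fully separate it from them.

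**Figure D3:**
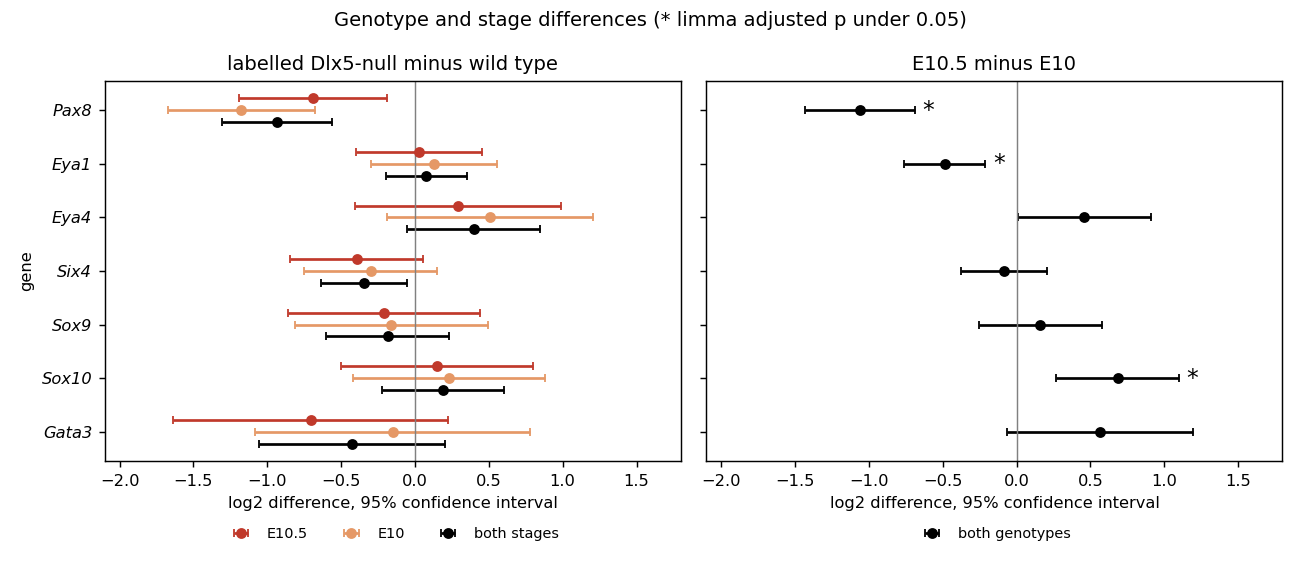
Log2 differences of the 7 genes with 95% confidence intervals, for labelled Dlx5-null minus wild type on the left (E10.5, E10 and both stages) and for E10.5 minus E10 on the right, with a star at a limma adjusted p under 0.05. Pax8 lies left of zero in each comparison and the stars on the right stand at Pax8, Eya1 and Sox10.

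Between the genotypes, 0 of the 7 genes passed the threshold over both stages in limma, where 0.0220% of all genes did. At an unadjusted p under 0.05 there were 2, Pax8 and Six4, against 4.10% of all genes, and for these 2 the genotypes did not overlap, against 5.21% of all genes. At E10.5 limma called 0 of 7 (0.00733% of all genes), with 1 at an unadjusted p under 0.05 (2.95% of all genes), and at E10 0 of 7 (0% of all genes), again with 1 (3.31% of all genes). In the test of whether the genotype difference changed with stage, limma called 0 of 7, and 0 had an unadjusted p under 0.05, against 0% and 1.97% of all genes. Within 1 stage the genotypes did not overlap for 45.1% of all genes at E10.5 and 17.4% at E10. The median genotype difference was -0.18 over the 7 genes and -0.01 over all genes. The stage and genotype comparisons share the same 8 arrays.

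**Figure D4:**
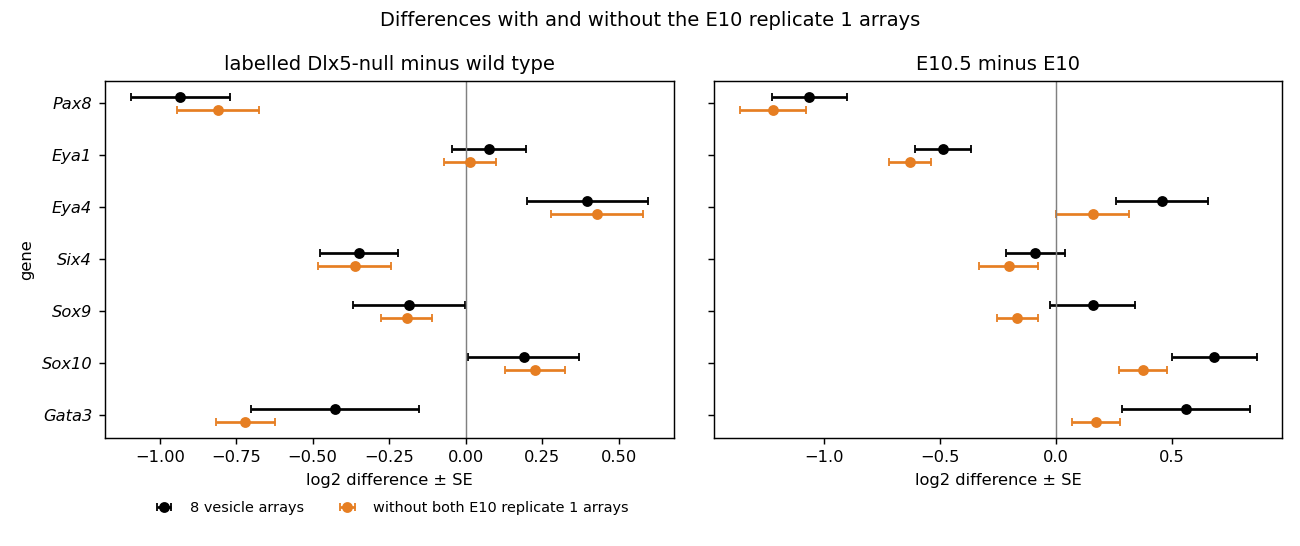
Log2 differences of the 7 genes with their standard errors, over all 8 vesicle arrays (black) and without the replicate 1 arrays of both genotypes at E10 (orange). On the left, for labelled Dlx5-null minus wild type, Gata3 is -0.43 in black and -0.72 in orange, and on the right, for E10.5 minus E10, Sox10 is 0.69 and 0.38 and Sox9 changes sign.

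Markers of other tissues moved with stage as well, in a comparison where 9.28% of all genes passed higher and 6.54% lower. All 6 tested red blood cell genes rose, and the summed log2 level of the 6 was 67.33 to 67.49 in labelled-null E10.5 vesicles and 60.02 to 60.11 in wild-type E10.5 vesicles, against 47.49 to 53.73 and 47.56 to 53.44 in the E10 groups of the same genotypes. Of 8 tested otic neuroblast genes 5 rose and 1, Neurod1, fell, by 0.76, a call lost without both E10 replicate 1 arrays at -0.42 (limma adjusted p = 0.0506). Of 13 periotic mesenchyme genes 4 rose, among them Lum by 2.21, and of 5 endothelial genes 2 rose. Of 6 tested neural crest and early glial genes, of interest beside Sox10, 1 rose, Ngfr, by 1.16 (limma adjusted p = 0.0102), and the crest factors Foxd3 and Tfap2b and the glial cadherin Cdh19 were too dim to be tested. The summed log2 level of the 9 measured crest and glial genes was 57.54 to 58.45 in labelled-null E10.5 vesicles and 57.64 to 57.86 in wild-type E10.5 vesicles, against 55.99 to 57.92 and 56.01 to 58.34 in the E10 groups of the same genotypes, which overlap. Of the 10 hindbrain neural tube genes only 3 were bright enough to be tested, and 1, Pax7, fell. The summed log2 level of the 9 measured hindbrain genes was 41.56 to 41.96 in labelled-null E10.5 vesicles and 41.37 to 41.39 in wild-type E10.5 vesicles, against 42.82 to 43.85 and 43.89 to 45.63 in the E10 groups of the same genotypes. These sums were apart between the stages and lower at E10.5, though most of the summed genes were below the filter. At E10 the sums were lower on the labelled-null arrays by a narrow margin, 43.85 at most against 43.89 at least on the wild-type arrays. At E10.5 the sums were higher on the labelled-null arrays, again by a narrow margin, 41.56 at least against 41.39 at most on the wild-type arrays. The part of these tissues in the stage differences of Pax8, Eya1 and Sox10 was not tested.

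Between the genotypes, none of these marker genes passed in limma, and 6 of 6 red blood cell genes and 8 of 8 neuroblast genes had higher means in labelled-null vesicles, with median differences of 0.66 and 0.37. Of all genes, 47.3% had higher means there. The red blood cell difference had a median of 1.32 at E10.5, where 6 of 6 genes were higher and 4 had an unadjusted p under 0.05, against 2.95% of all genes. At E10 its median was 0.11, with 4 of 6 higher and 0 at that p. For the neuroblast genes the medians were 0.38 at E10.5 and 0.48 at E10. Without both E10 replicate 1 arrays the neuroblast median was 0.16 over both stages and 0.14 at E10. The red blood cell median over both stages was then 0.99. Of the 13 mesenchyme genes 11 had lower means there, as did 2 of the 3 hindbrain genes. Over both stages, where 4.10% of all genes had an unadjusted p under 0.05, 1 red blood cell, 2 neuroblast and 2 mesenchyme genes did. Their part in the lower Pax8 level was not tested.

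The levels of 7 otic epithelial genes outside the 8 were also read. Among them Oc90, which encodes the main otoconial matrix protein, was at 13.24 and 13.14 in labelled-null E10.5 vesicles and 13.28 and 13.28 in wild-type E10.5 vesicles, against 11.44 and 12.56 in labelled-null E10 vesicles and 10.75 and 11.85 in wild-type E10 vesicles. It rose by 1.58 in E10.5 vesicles (SE 0.31, limma adjusted p = 0.0158), and by 1.03 without both E10 replicate 1 arrays. Epcam was at 8.23 and 8.40 in labelled-null E10.5 vesicles and 8.13 and 8.07 in wild-type E10.5 vesicles. Its E10 levels were 8.19 and 8.14 in labelled-null vesicles and 8.12 and 8.08 in wild-type vesicles. With the members included, 14 otic epithelial genes were tested, of which 3 rose with stage and 2 fell, where 15.8% of all genes passed. Between the genotypes 9 of the 14 had lower means in labelled-null vesicles and 5 higher, with 3 at an unadjusted p under 0.05, against 4.10% of all genes. These included Cdh1, at -0.38 (SE 0.12, limma adjusted p = 0.891). Its genotypes were apart at both stages, as they were for 5.21% of all genes. Its part in the lower Pax8 level was not tested. All 7 genes outside the 8 passed the filter in vesicles, and 4 passed it in 2B1 cells, where Hmx2, Hmx3 and Lmx1a did not.

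Among 13 tested relatives of Pax8, Six4 and Eya1, the Dach genes included, 1 rose and 1 fell with stage, where 15.8% of all genes passed. Six2 was at 8.41 and 8.30 in labelled-null E10.5 vesicles and 8.34 and 8.13 in wild-type E10.5 vesicles, against 6.67 and 7.56 in labelled-null E10 vesicles and 6.86 and 6.68 in wild-type E10 vesicles, a rise of 1.35 (SE 0.19, limma adjusted p = 0.00542). Pax7, a gene of the dorsal neural tube and crest, fell by 1.19 (SE 0.14, limma adjusted p = 0.00394). The median of the 13 was -0.05. Between the genotypes 0 of the 13 passed in limma, with 1 at an unadjusted p under 0.05, against 4.10% of all genes. Eya2 had the largest difference, 0.47 (limma adjusted p = 0.996).

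Of 16 tested Sox and Gata relatives, 1 rose with stage and 2 fell, where 15.8% of all genes passed. Gata2, at 8.02 and 7.83 in labelled-null E10.5 vesicles and 8.53 and 8.42 in wild-type E10.5 vesicles, against 7.27 and 7.60 in labelled-null E10 vesicles and 7.11 and 7.06 in wild-type E10 vesicles, rose by 0.94 (SE 0.19, limma adjusted p = 0.0169). Sox21 fell by 0.99 (SE 0.14, limma adjusted p = 0.00542), and Sox2, the prosensory and neural Sox gene, fell by 0.60 (SE 0.11, limma adjusted p = 0.0141). Between the genotypes 0 of 16 passed in limma, with 2 at an unadjusted p under 0.05, against 4.10% of all genes. These were Sox2 and Sox17, the second at -0.66 (limma adjusted p = 0.949). Sox2 was at 8.92 and 8.54 in labelled-null E10.5 vesicles, against 9.18 and 9.32 in wild-type E10.5 vesicles, and at 9.36 and 9.27 in labelled-null E10 vesicles, against 9.83 and 9.88 in wild-type E10 vesicles. Its genotypes were apart at both stages, with a difference of -0.53 (SE 0.11, limma adjusted p = 0.353).

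Of 20 other tested early otic genes, 3 rose with stage and 2 fell, where 15.8% of all genes passed. Besides Oc90, Fbxo2 rose by 1.11 (SE 0.26, limma adjusted p = 0.0275) and by 0.61 without both E10 replicate 1 arrays. Irx3 rose by 0.89 (SE 0.24, limma adjusted p = 0.0431) and by 0.44 without them, and Jag1, a Notch ligand, fell by 0.95 (SE 0.19, limma adjusted p = 0.0148) alongside Sox2. Leaving out both E10 replicate 1 arrays, these 5 still passed and Otx1 joined them, with a difference of 0.89. The median stage difference of the 20 was 0.42 with all arrays and 0.12 without those 2. Between the genotypes 0 of the 20 passed, with 1 at an unadjusted p under 0.05, against 4.10% of all genes.

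For the 5 genes whose vesicle group means spanned at least 0.5, the 3 tested genes with the most similar profile were sought by the root mean square difference of centred log2 values over the 8 vesicle arrays. For Pax8 they were Prdm1 (0.224), Dmrt3 (0.235) and Epha4 (0.243), where the median over all genes was 0.778. For Eya1 they were Cep70 (0.0240), Fancd2 and Zfp131 (0.0532), and for Eya4 they were Lpin1 (0.117), Tmem231 (0.136) and Tnnc1 (0.138). Sox10 lay nearest to Gga1 (0.0559), Ubash3b (0.0576) and Nfkb2 (0.0614), and Gata3 to Pdlim2 (0.144), Ptk2b (0.165) and Tle6 (0.166). The median over all genes was lower for these members than for Pax8, at 0.364 for Eya1, 0.422 for Eya4, 0.434 for Sox10 and 0.511 for Gata3. Gga1 lies on chromosome 15, as does Sox10, and no other neighbour shared its member's chromosome. The arrays are shared by all pairs, so likeness here is a description.

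In 2B1 cells 0 of the 6 tested members passed between Dlx5-transfected and empty vector cultures in limma, with 0 at an unadjusted p under 0.05, against 0% and 12.9% of all 13647 genes. Sox10, read there from another of its 3 probe sets, was at 6.66 and 6.53 in Dlx5-transfected cultures, against 7.17 and 6.74 in empty vector cultures. Its difference was -0.36 (SE 0.19, 95% interval -0.81 to 0.09, limma adjusted p = 0.433). Gata3 was at 5.67 and 5.83 in Dlx5-transfected cultures, against 5.27 and 5.65 in empty vector cultures. Its difference was 0.29 (SE 0.19, limma adjusted p = 0.496). Those 2 genes and Sox9 did not overlap between the groups, against 48.8% of all genes. Differences of the other members were 0.21 for Eya1, 0.01 for Eya4, -0.03 for Six4 and -0.14 for Sox9.

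Eya4 differed between its probe sets in 2B1 cells. The set that was brightest in vesicles was at 6.05 and 5.56 in Dlx5-transfected cultures, against 4.71 and 5.04 in empty vector cultures. Tested singly, where 0% of probe sets passed, the difference was 0.93 (SE 0.22, limma adjusted p = 0.471). The set that was brightest in 2B1 cells was at 5.75 and 5.81 in Dlx5-transfected cultures, against 5.71 and 5.83 in empty vector cultures. The groups were thus apart on the one set and overlapped on the other. Pax8, below the filter, was at 4.04 and 4.18 in Dlx5-transfected cultures, against 4.58 and 4.48 in empty vector cultures. Its other probe set went the other way, at 4.45 and 4.28 in Dlx5-transfected cultures, against 3.96 and 4.11. Signs also differed between the probe sets of Eya1, Six4 and Sox9. For Six4 the other sets had differences of 0.47, 0.36 and -0.12. Limma called 0 of 12 relatives of Pax8, Six4 and Eya1, 0 of 16 Sox and Gata relatives and 0% of all genes. Before adjustment, 2 of the 12 and 1 of the 16 had a limma p below 0.05, against 12.9% of all genes. Of these relatives Sox11 had the largest difference, -0.97 (limma adjusted p = 0.334).

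**Figure D5:**
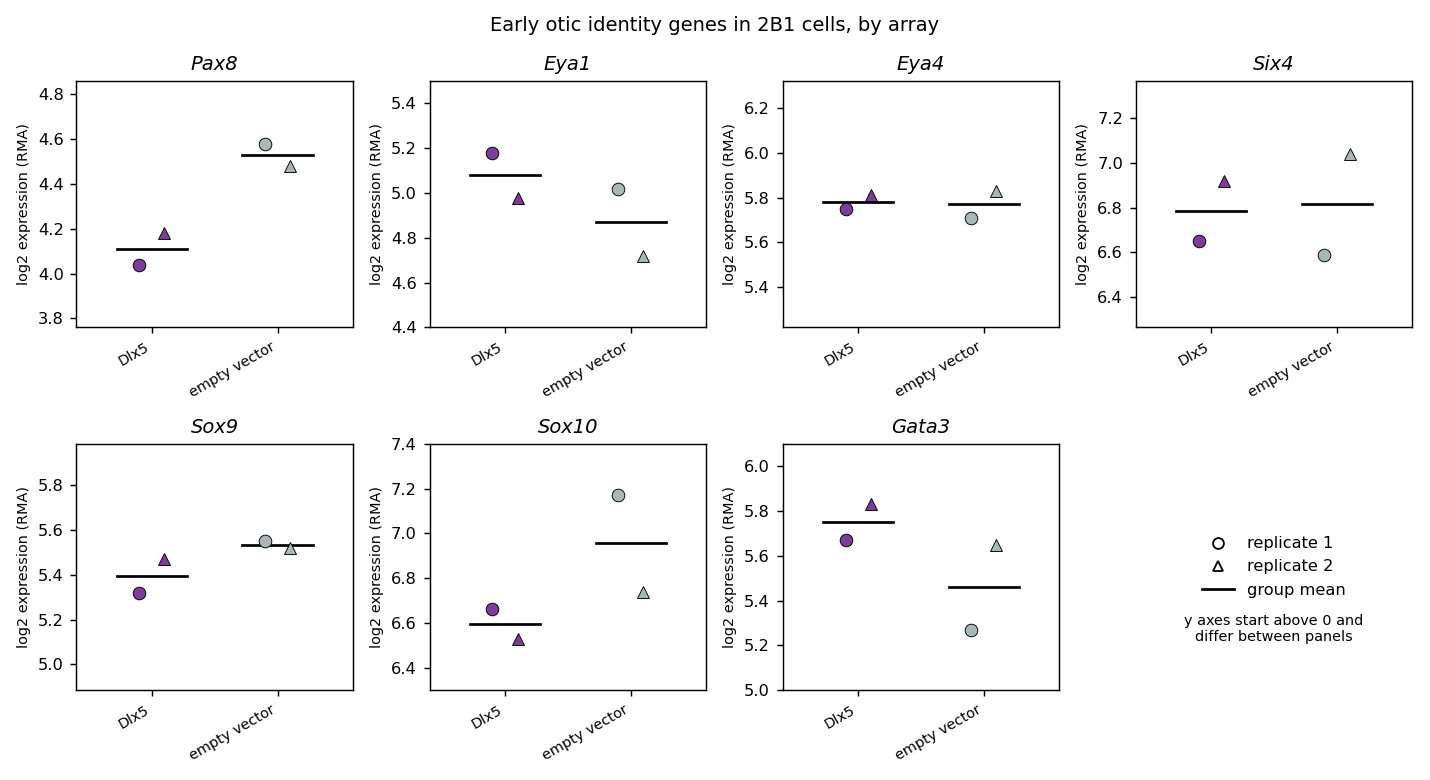
Log2 expression of the 7 genes on each 2B1 array, Dlx5-transfected on the left and empty vector on the right of each panel, with circles for replicate 1, triangles for replicate 2 and a bar at the mean. Pax8, shown though below the filter, lies between 4.04 and 4.58, and Eya4 and Six4 overlap between the groups.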

How the data were processed

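The deposited values are log2 expression of 45101 probe sets on 12 arrays, made by the authors with RMA in Affymetrix Expression Console, per the submitters' processing notes. The software version is not stated there. The method subtracts background, aligns array distributions and combines the probes of a set, which compresses differences of dim probe sets. Detection calls were not used, so signal over background is unknown, and 2 arrays a group limit the precision. Probe sets with 1 listed gene (34958) entered gene tests, while 932 with more than 1 gene and 9211 without one did not. The platform annotation was updated through RefSeq to 18194 genes, each read from its brightest probe set, and removal of the dimmest 25% kept 13645 for the vesicles and 13647 for the 2B1 line.

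Each test was a limma 3.58.1 fit (lmFit, eBayes, R 4.3.3), with Benjamini-Hochberg adjustment over all tested genes and a threshold of 0.05. The null effect over both stages had stage as a covariate, the stage effect had genotype, the contrasts by stage and their interaction came from group means, and 2B1 arrays were fitted alone. Members, lists and tests were chosen with earlier results of these data known. Named genes were all members with every probe set, Dlx5, list genes past the threshold and otherwise up to 4 with the largest difference, and for likeness the 3 nearest genes. Groups and replicate numbers came from sample titles, with which the E10.5 descriptions conflict on the number. Alternatives were the filter, probe set rule, scaling, variance trend, arrays left out, the replicate number as a block, the E10 replicate 1 arrays and the Y-linked gene Eif2s3y. Per the labels, replicates are separate pools or cultures.

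On simulated data over the same genes, limma called 70% and 98% of changed genes at log2 sizes of 1 and 2 for the null effect over both stages, 35% and 78% at E10.5, 32% and 81% at E10, 1% and 47% for the interaction, 68% and 95% for stage, and 18% and 80% in 2B1 cells. Calls of unchanged genes numbered 12, 5, 4, 4, 7 and 1 in the same order. The simulated noise was independent between genes and arrays, whereas same-numbered E10 arrays deviated together (r = 0.71). These shares may therefore not hold for the real arrays.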

Additional observations from a re-analysis of the deposited data

How the results depend on the processing

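Of the 19 alternatives or fewer run for each comparison, most kept the number of members past the threshold. The exception between the genotypes was a term for the E10 replicate 1 arrays, chosen after the data were seen. With it 1 member (Pax8) passed over both stages and 1 at E10. That term also raised the calls over all 13645 genes, from 3 to 38 over both stages and from 0 to 73 at E10. For stage the exceptions were centring each array on its median or the Eif2s3y covariate, each of which left 1. With single arrays left out, the stage comparison called 1 to 4 of the 7. The cause was not tested in these cases. The counts over all genes ran from 0 to 38 for the null effect over both stages (3 as reported), 0 to 50 at E10.5 (1), 0 to 73 at E10 (0), 0 to 4 for the interaction (0), 233 to 3806 for stage (2158) and 0 to 1742 in 2B1 cells (0). The highest 2B1 count came without empty vector replicate 2 and the lowest stage count with the Eif2s3y covariate.

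Reversed signs concerned values that did not pass. Eif2s3y itself varied with stage and, at E10.5, with genotype. With the Eif2s3y covariate Sox9 was 0.079 over both stages, 0.15 at E10.5, 0.028 at E10, 0.12 in the interaction and -0.23 for stage, Gata3 was 0.14 over both stages, 0.0094 at E10.5, 0.22 at E10 and -0.26 for stage, and Eya1 (0.0033) and Sox10 (0.058) reversed in the interaction. Without both E10 replicate 1 arrays Eya1 was -0.01 at E10, Eya1 (0.035) and Gata3 (0.045) reversed in the interaction, and Sox9 was -0.17 for stage, as with the added term for those arrays (-0.17). With the mean of all probe sets Eya1 was -0.025 at E10.5, Six4 was 0.031 at E10, Sox9 was 0.023 in the interaction and Six4 was 0.17 in 2B1 cells. With median centring Eya1 was -0.015 at E10.5 and Six4 0.005 in 2B1 cells. With quantile normalisation repeated Eya1 (0.021) and Sox9 (0.021) reversed in the interaction.

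With single arrays left out, the interaction ran from -0.32 to 0.11 for Eya1, -0.62 to 0.19 for Eya4, -0.25 to 0.055 for Six4, -0.38 to 0.28 for Sox9, -0.47 to 0.31 for Sox10 and -1.25 to 0.14 for Gata3. At E10 the null effect ran from -0.08 to 0.34 for Eya1, -0.49 to 0.17 for Sox9, -0.16 to 0.62 for Sox10 and -0.84 to 0.54 for Gata3, at E10.5 from -0.045 to 0.10 for Eya1, and over both stages from -0.017 to 0.15 for Eya1. In 2B1 cells it ran from -0.05 to 0.07 for Eya4 and -0.26 to 0.20 for Six4.

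Same-numbered arrays deviated together at E10 (r = 0.71 over genes, which are not independent replicates) and hardly at E10.5 (0.07), and between stages r was -0.48 to -0.10, so the numbers were not taken as pairs. With the replicate block the stage comparison again called 3 members and the others 0, Pax8 over both stages had an adjusted limma p of 0.24, and 2B1 cells had 258 calls over all genes. Same-numbered 2B1 cultures had r = -0.13, and crossed numbers gave 20 calls, 0 of them members.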
